A study of Homo sapiens with 12 samples.

Results

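The 50 genes described here were close to lost in MDA-MB-231 breast cancer cells that carry the S134A glucocorticoid receptor (S134A-GR). They were chosen by their levels: a mean normalized read count of at least 100 over the 3 WT-GR vehicle libraries, and a mean in S134A-GR cells of at most 10% of the WT-GR mean both in vehicle and in Dex. Of 19907 genes in the files, 12384 reached a mean of 100 in WT-GR vehicle and 58 met both ratio limits. The rule set 8 of these aside by name (EPHA3, NUP210, BST2, TFF3, ICAM1, NKX2-1, AGR2 and MUC5AC), which left 50. Because the levels in the 2 genotypes chose the genes, their difference between genotypes is a description and is not tested below.

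MDA-MB-231 is an established human line of triple-negative breast cancer with a mesenchymal phenotype. RNA-seq libraries came from 4 groups of 3 libraries: WT-GR vehicle, WT-GR Dex, S134A-GR vehicle and S134A-GR Dex, where Dex is dexamethasone, a synthetic glucocorticoid, at 1 µM for 6 h. All 4 groups had been starved for 18 h in IMEM with 1% DCC beforehand. WT-GR cells hold the wild-type receptor, and in S134A-GR cells alanine replaces a serine of the receptor that can be phosphorylated. Whether the libraries within a group come from separate cultures is not in the labels; p-values therefore reflect the spread among these libraries alone, which may be technical. They also do not say how the receptors were introduced or whether each genotype is 1 clone, so receptor genotype and any other difference between the 2 lines cannot be told apart.

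The glucocorticoid receptor is a transcription factor that enters the nucleus when it binds a glucocorticoid and acts on genes at DNA elements made of paired half-sites, or through other factors such as AP-1. Phosphorylation of serines in its N-terminal part changes which cofactors it meets and so which genes respond, and alanine cannot take a phosphate. Triple-negative tumours lack oestrogen receptor, progesterone receptor and HER2 amplification, and glucocorticoid signalling in them has been studied for its links to migration and stress responses.

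Recovered depth was 56.4 to 100.6 M reads per library (M, mega), lowest in the first library of each WT-GR group. WT-GR Dex replicates 2 and 3 stood apart with 193 and 210 genes holding a single read, where the remaining 10 libraries had 352 to 409. Even counts were over-represented among low counts in every library (58.2 to 67.5% of counts from 1 to 20), so reads are not all independent. Intervals or floors cover the counting error of independent reads only. The gene names of the 6 Dex files are shifted, and every Dex value here carries the name on the same line of the vehicle files. All 50 genes passed the filter on low values used for testing, which asks for 10 or more in 3 or more libraries, and the WT-GR libraries alone are enough for that.

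In S134A-GR cells the 50 genes kept a median of 2.19% of their WT-GR mean in vehicle (range 0 to 8.72%) and 1.58% in Dex (range 0 to 9.52%). In all 50, the lowest of the 6 WT-GR values lay above the highest of the 6 S134A-GR values, and the smallest ratio between them was 4.13. The rule fixes this direction. Across all 15957 genes tested with limma, S134A-GR values were called lower for 26.7% and higher for 23.8% in vehicle, and for 26.3% and 23.4% in Dex, so changes of some size were common in both directions. Exchanging the genotypes in the numeric limits gave 6 genes (MAFIP, DMD, LYPLAL1-AS1, SPP1, THSD7B and ZNF300) of 12505 with a mean of at least 100 in S134A-GR vehicle, against 58 of 12384. With the limit applied in both treatments, at 5% the counts were 45 and 3, at 20% they were 92 and 16, and at 50% they were 287 and 271. These counts describe 2 lines and carry no test.

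**Figure D1:**
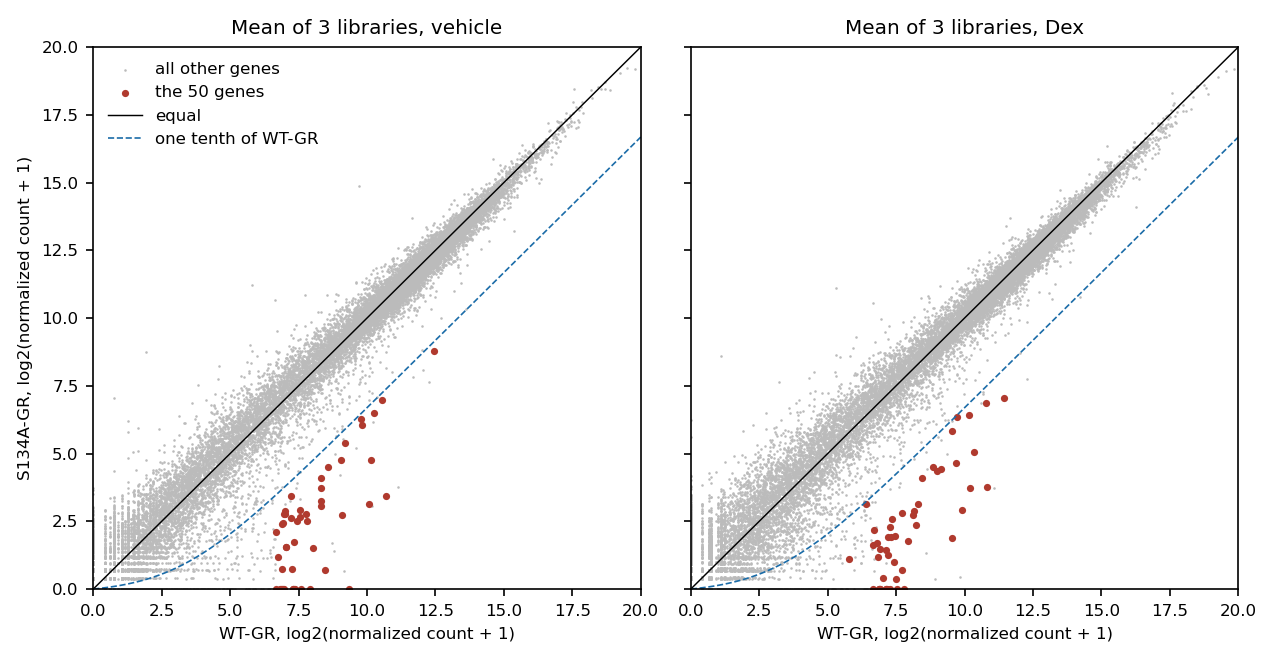
Mean of 3 libraries per gene in S134A-GR (vertical) against WT-GR (horizontal), on log2(normalized count + 1) axes, in vehicle and in Dex; the solid line marks equal means and the dashed line 10% of WT-GR. The 50 genes (red) lie on or under the dashed line by the rule, and the grey points under it were set aside by name, had a WT-GR vehicle mean under 100 or met the limit in only 1 treatment.

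At the edges of the rule, CDH13 was the last gene inside, with 9.52% of its WT-GR mean left in Dex, followed by MARC1 (9.496% in Dex), IL2RB (8.72% in vehicle), GMFG (8.25% in vehicle) and ADGRF5 (7.97% in vehicle). The nearest genes outside were ITGB2 (10.2% in vehicle), CDH5 and MCAM (both 10.2% in vehicle), PRSS2 (10.8%) and ASS1 (11.6%). On the level limit, SDR16C5 was the lowest gene inside, with a mean of 100.5, and GYG2 the nearest below it, with 99.5 and likewise under 1% left in vehicle. Membership near either limit is therefore a matter of small differences.

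The levels in WT-GR cells were modest for most of these genes. Per kilobase of exon and per M reads, the median of the 49 genes with an exon length was 0.632 in WT-GR vehicle, and 35 of 49 lay under 1. GMFG was the highest on this scale at 11.1, ahead of ADGRF5 at 9.17 and KISS1 at 9.12, and COBL the lowest at 0.0901. By RefSeq type, 48 are protein-coding genes, SFTA3 is a long non-coding RNA and LOC643201 a transcribed pseudogene of CEP192, whose reads the counting may share with its parent gene. In S134A-GR cells, fewer cells with a transcript and less transcript per cell cannot be told apart in these bulk libraries.

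**Figure D2:**
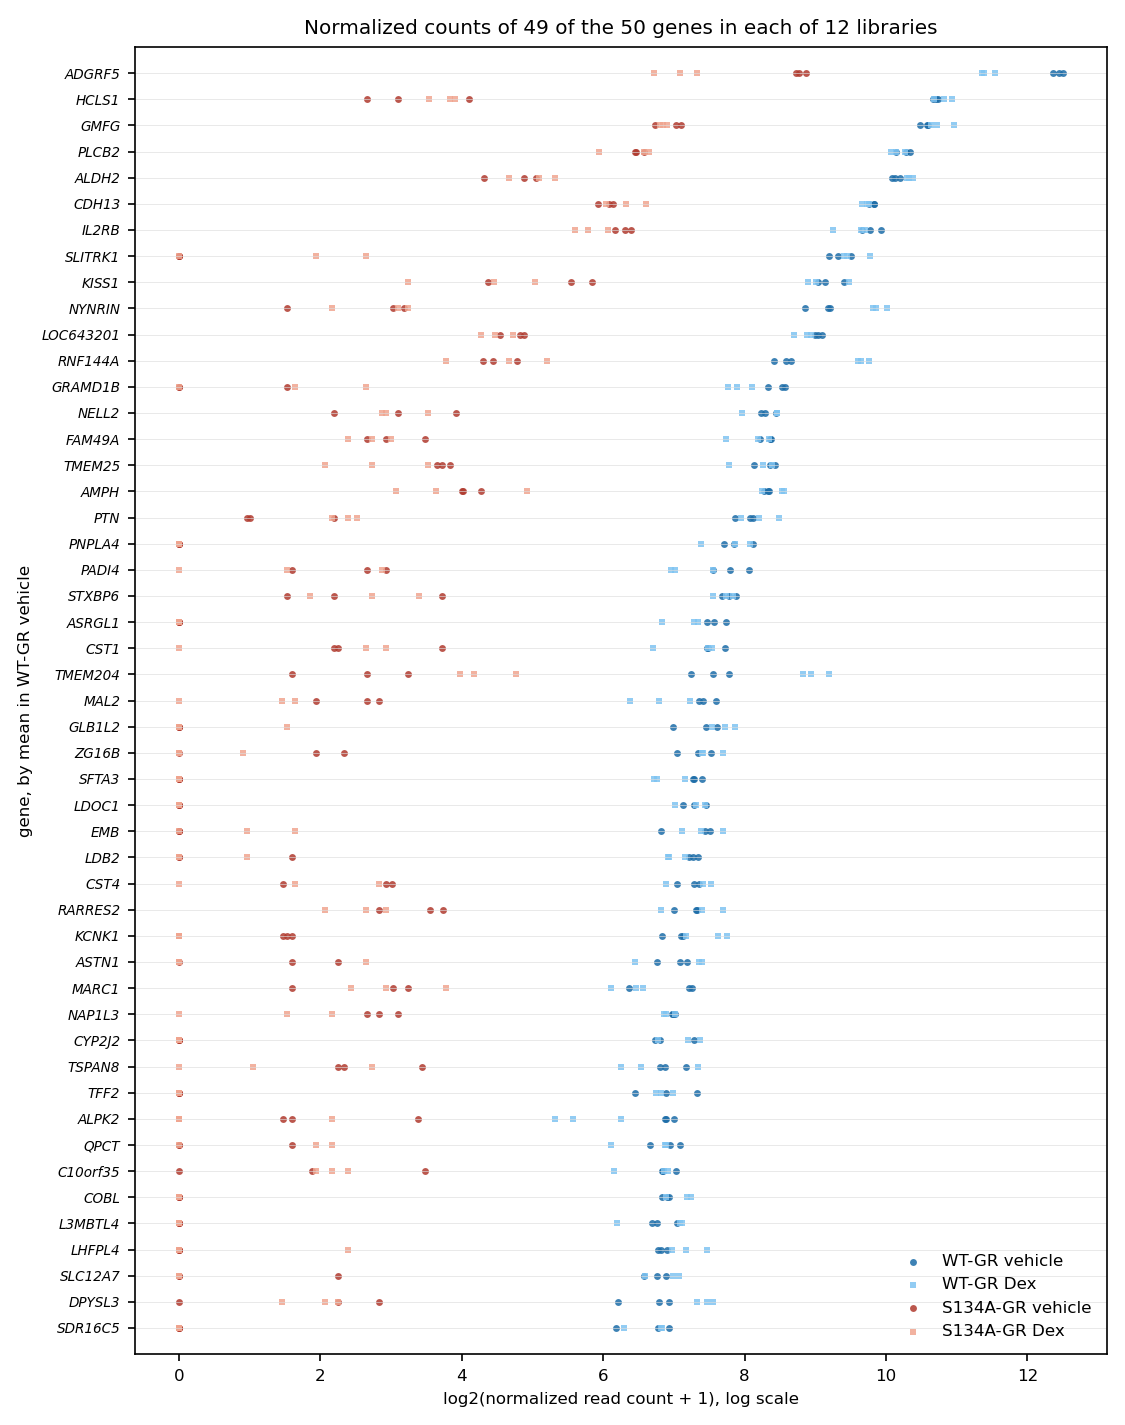
Normalized read counts of 49 of the 50 genes in the 12 libraries, as log2(value + 1) on the horizontal axis, with genes ordered by their WT-GR vehicle mean; circles are vehicle and squares Dex libraries. WT-GR points (blue, paler for Dex) and S134A-GR points (red, paler for Dex) do not overlap for any gene drawn, and points at 0 are libraries without a read.

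Promoter sequence was a property that the rule did not use. RefSeq start sites (GRCh38.p14) were matched for 31 of the 50 genes, and the 250 bases before each start were read. Each gene was read at a single start. For RNF144A, SLC12A7, CYP2J2 and L3MBTL4 the window lies inside the RefSeq span of the gene, and the outer end of the span was not read. The density of CpG, the dinucleotide that is methylated in mammalian DNA, varied widely, which the following windows show, with every CG in capitals. They were chosen because ADGRF5 and RNF144A are among the genes called for Dex below, TSPAN8 had the lowest CpG ratio, and LDOC1 and SLC12A7 are CpG-rich genes whose S134A-GR libraries held almost no reads. Each is given 5′ to 3′ on the strand of its gene.
ADGRF5, chr6:46954940-46955189, minus strand: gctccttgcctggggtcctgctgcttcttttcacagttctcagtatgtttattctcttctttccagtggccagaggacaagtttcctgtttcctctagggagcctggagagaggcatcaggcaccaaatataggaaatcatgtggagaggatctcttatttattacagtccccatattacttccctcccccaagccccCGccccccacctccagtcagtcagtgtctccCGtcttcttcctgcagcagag
RNF144A, chr2:6932834-6933083, plus strand: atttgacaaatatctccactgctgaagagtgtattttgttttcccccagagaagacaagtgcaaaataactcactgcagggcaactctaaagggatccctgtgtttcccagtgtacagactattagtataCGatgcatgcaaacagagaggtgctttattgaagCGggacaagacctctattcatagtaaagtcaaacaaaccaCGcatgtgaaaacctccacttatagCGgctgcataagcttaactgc
TSPAN8, chr12:71158000-71158249, minus strand: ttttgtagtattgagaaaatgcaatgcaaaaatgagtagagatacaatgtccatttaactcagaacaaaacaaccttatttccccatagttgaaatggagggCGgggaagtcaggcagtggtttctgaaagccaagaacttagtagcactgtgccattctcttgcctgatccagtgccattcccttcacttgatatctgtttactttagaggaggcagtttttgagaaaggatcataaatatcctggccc
LDOC1, chrX:141177130-141177379, minus strand: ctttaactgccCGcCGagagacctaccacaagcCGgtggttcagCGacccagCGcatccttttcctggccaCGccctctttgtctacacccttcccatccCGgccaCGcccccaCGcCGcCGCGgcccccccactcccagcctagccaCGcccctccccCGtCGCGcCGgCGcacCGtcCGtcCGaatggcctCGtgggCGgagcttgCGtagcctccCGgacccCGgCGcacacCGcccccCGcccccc
SLC12A7, chr5:1112064-1112313, minus strand: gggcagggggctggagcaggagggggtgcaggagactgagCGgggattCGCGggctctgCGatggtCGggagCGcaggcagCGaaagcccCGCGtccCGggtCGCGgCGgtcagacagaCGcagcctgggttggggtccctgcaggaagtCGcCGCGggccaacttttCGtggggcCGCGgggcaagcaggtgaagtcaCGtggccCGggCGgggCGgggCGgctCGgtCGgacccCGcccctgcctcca

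The TSPAN8 window holds 1 CpG and the ADGRF5 window 2, against 29 in LDOC1 and 28 in SLC12A7. Over the 31 windows the median ratio of observed to expected CpG was 0.624, and 17 (54.8%) had a ratio of at least 0.6. The same limit was met by 81.5% of the 10011 windows of all genes at or above 100 in WT-GR vehicle, and by 70.8% of the 2441 windows of genes between 100 and 1000. A ratio under 0.4 occurred in 9 of 31 (29.03%), namely ADGRF5, HCLS1, GMFG, KISS1, RNF144A, PADI4, ZG16B, TSPAN8 and ALPK2, against 9.98% and 18.1% in those backgrounds. Level moves with this measure: the median WT-GR vehicle value was 158 for the 31 genes, 3100 for all genes and 401 for genes up to 1000, and its part in the difference was not tested. Members were found at both ends of the range, such as LDOC1 (ratio 1.01) and TSPAN8 (0.0965).

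Short motifs were also read in the 250-base windows, on both strands. The receptor half-site AGAACA was found in 2 of 31 windows (6.45%), TSPAN8 and ZG16B, and in 7.002% of all 10011 windows. An AP-1 site (TGANTCA) was found in 2 of 31 (6.45%), HCLS1 and PADI4, and in 3.92% of all windows. A TATA box (TATAAA) was found in 5 of 31 (16.1%) against 4.92%, and it began 29 or 30 bases before the start in KISS1, PADI4 and ZG16B. The GC box GGGCGG was about as frequent in these genes (67.7%) as in all (68.0%). In the 2441 windows of genes between 100 and 1000, nearer in level, the shares were 7.62% for the half-site and 4.83% for AP-1. There the TATA box was in 6.02% and the GC box in 62.5%. AP-1 and TATA counts are of 2 and 5 windows, and all matches describe only the letters in these windows.

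The 50 genes lie on 21 chromosomes, with up to 6 on any of them (chromosome 1, then 5 on chromosome 7). CST1 and CST4 are adjacent cystatin genes on chromosome 20, 58.5 kb apart. SFTA3 overlaps NKX2-1 on chromosome 14, and TFF2 lies 30.9 kb from TFF3 on chromosome 21; both of those partners met the numeric limits and were set aside by name. The nearest measured gene on either side, with a mean of at least 100 in WT-GR vehicle, gave 99 neighbours with a median of 89.8% left in S134A-GR vehicle, against 98.1% over all 12384 genes. At 20% or less were 4 of 99 (4.04%, against 0.896% of all genes), and these were CST1, CST4, NKX2-1 and TFF3, which all met the numeric limits themselves. At 50% or less were 11 of 99 (11.1%), against 2.94% of all genes. The limits placed those 4 genes among the 11, and without them the count was 7 of 95 (7.37%). PADI3, next to PADI4 and also a peptidylarginine deiminase, was among these 11 with 37.3% left (460.8 in WT-GR and 171.7 in S134A-GR vehicle). On the other side, SLC25A27 next to ADGRF5 was at 250% of its WT-GR mean.

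**Figure D3:**
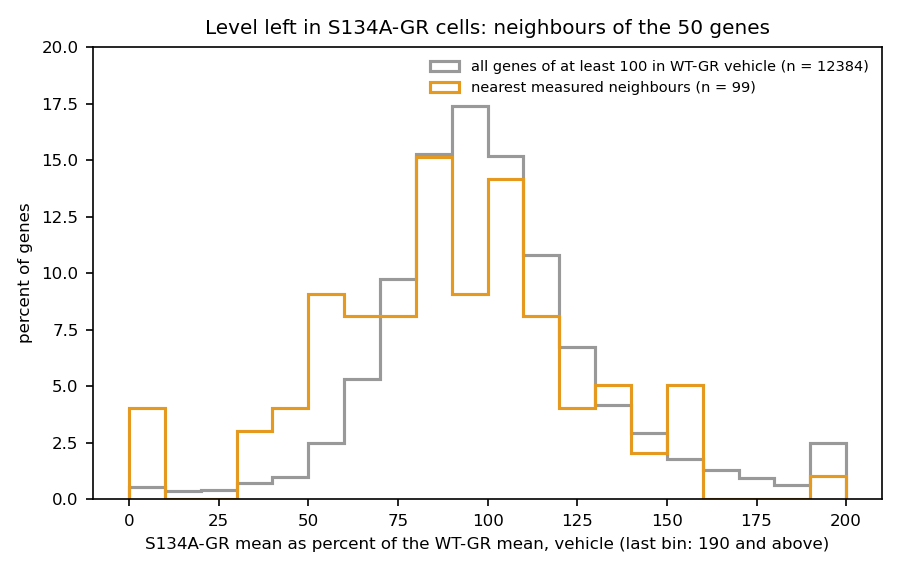
Share of genes (vertical, percent) by the S134A-GR mean as percent of the WT-GR mean in vehicle (horizontal, bins of 10, the last open upwards), for the 99 nearest measured neighbours of the 50 genes, members among them, and for all 12384 genes with a WT-GR vehicle mean of at least 100. The 4 neighbours at 20% or less are CST1, CST4, NKX2-1 and TFF3, and the median is 89.8% for neighbours and 98.1% for all genes.

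The members known from blood cells, 7 in all, act there in signalling and in the actin skeleton, and HCLS1, GMFG, PLCB2, IL2RB, PADI4 and FAM49A are among them. HCLS1, an actin-binding substrate of Src-family kinases, read 1616, 1713 and 1669 in WT-GR cells without Dex and 1953, 1632 and 1814 with it; the S134A-GR libraries read 7.54, 16.2 and 5.35 without Dex and 10.6, 14 and 13.2 with it. All 6 WT-GR values lay far above all 6 S134A-GR values, and the mean was 172-fold lower in S134A-GR vehicle. GMFG, which removes branches from actin networks, read 1543, 1430 and 1536 in WT-GR vehicle and 130, 137 and 105 in S134A-GR vehicle.

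PLCB2, a phospholipase that acts below G proteins, kept more than HCLS1, with 1124, 1249 and 1301 in WT-GR vehicle and 94.3, 87.2 and 86.4 in S134A-GR vehicle, or 7.29% of the mean. IL2RB, the β chain of the interleukin-2 receptor, read 811, 973 and 879 in WT-GR vehicle and 83.0, 71.0 and 78.4 in S134A-GR vehicle. HCLS1 kept the least of the 7 in both treatments, at 0.582% in vehicle and 0.699% in Dex. PADI4, which citrullinates histones, was the lowest of the 7 in WT-GR vehicle (267, 186 and 220) and had 6.60, 2.03 and 5.35 in S134A-GR vehicle, while FAM49A, which binds Rac, kept 2.31% in vehicle.

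Markers of blood cells were mixed. Of the 20 markers in the blood cell list, 15 were in the files, and 7 had group means under 10 throughout: PTPRC (3.46 to 8.76), CD4, ITGAM, NCAM1, NKG7, SPI1 (0 to 1.35) and HBA1, which was at 0 in all 12 libraries. Others were high in every group, with group means of 40640 to 43810 for CD74, 28020 to 41440 for CD68, 23390 to 38190 for LAPTM5 and 439.7 to 951.7 for CSF1R. In the 8 tested markers, 2 were called lower and 2 higher in S134A-GR vehicle, and 3 and 2 in Dex. The summed level of the list was 103600 to 110800 in the WT-GR vehicle libraries and 104900 to 119300 with Dex, and in S134A-GR cells 107200 to 112300 without Dex and 99510 to 106200 with it. The part of these markers in the values of the 7 genes was not tested.

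A further 8 members were placed by hand in a group of secretory epithelial genes: TFF2, ZG16B, CST1, CST4, TSPAN8, MAL2, SFTA3 and RARRES2. TFF2, a trefoil peptide of gastric mucus, read 86.4, 117 and 159 in WT-GR cells without Dex and 126, 107 and 112 with it, and had no read in any of the 6 S134A-GR libraries. SFTA3, which overlaps the lung and thyroid regulator NKX2-1, read 155, 153 and 167 in WT-GR vehicle and was also at 0 in all 6. Reads in the overlap may not belong to SFTA3 alone. It is therefore not counted as evidence separate from NKX2-1, which had means of 421.9 in WT-GR vehicle and 2.26 in S134A-GR vehicle. TFF2 and SFTA3 therefore combine a clear WT-GR level with no detection at all in the other line.

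The cystatins CST1 and CST4, secreted inhibitors of cysteine proteases, read 176, 179 and 210 and 155, 131 and 162 in WT-GR vehicle. They kept 3.46% and 3.45% of these means in S134A-GR vehicle. How alike their sequences are was not measured. Reads may be split between these related genes, so they are not counted as separate evidence. ZG16B, a secreted lectin-like protein, held 7 reads over the 3 S134A-GR vehicle libraries and 1 over the 3 Dex libraries. RARRES2, which encodes the chemokine-like chemerin, kept the most of the 8, at 6.52% in vehicle and 3.09% in Dex. TSPAN8 was the one member in any of the 10 gene lists, that of airway and gut lineage genes. Of the 11 tested genes of that list, 3 were lower in S134A-GR vehicle, but TSPAN8 and NKX2-1 met the rule's limits and so had to be; FOXA2 was the remaining gene called lower, and 2 were called higher.

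Another 12 members are known from neurons or from cell adhesion. SLITRK1, a synaptic membrane protein, read 724, 642 and 585 in WT-GR cells without Dex and 872, 699 and 678 with it. It was at 0 in the 3 S134A-GR vehicle libraries and at 0, 5.25 and 2.83 with Dex. Taking 3 reads over the 3 libraries as the limit of a count of 0, its vehicle level was at least 685-fold lower. That limit assumes independent reads, which the excess of even counts goes against, so the true bound may be smaller. CDH13, a cadherin anchored without a cytoplasmic tail, was at the other end: 912, 868 and 911 in WT-GR vehicle against 69.8, 66.9 and 59.7 in S134A-GR cells without Dex, and 79.2, 64.8 and 96.1 with it.

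PTN, the growth factor pleiotrophin, read 233, 268 and 277 in WT-GR vehicle and 0.943, 1.01 and 3.56 in S134A-GR vehicle. NELL2, a secreted neuronal glycoprotein, read 313, 300.2 and 346 against 7.54, 14.2 and 3.56, and AMPH, which bends membranes in endocytosis, read 324, 321 and 308 against 15.1, 18.2 and 15.1. COBL, an actin nucleator, read 119, 121 and 113 in WT-GR vehicle and had no read in any S134A-GR library. LHFPL4, which helps to cluster GABA receptors, and EMB, a partner of monocarboxylate transporters, were at 0 in S134A-GR vehicle only, with 4 and 3 reads over the S134A-GR Dex libraries. STXBP6, ASTN1, NAP1L3 and DPYSL3 kept 2.69%, 1.496%, 5.01% and 3.24% in vehicle.

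ADGRF5, TMEM204 and KISS1 are linked to vessels or to cell motility. ADGRF5, an adhesion G-protein-coupled receptor of endothelium and lung epithelium, was the most abundant member by read count: 5802, 5601 and 5256 in WT-GR cells without Dex, and 2677, 2628 and 2997 with it. The S134A-GR libraries read 434, 425 and 469 without Dex and 105, 160 and 135 with it. Its S134A-GR level was the highest of the 50, so its loss was partial, with 7.97% left in vehicle and 4.81% in Dex. KISS1, the precursor of kisspeptin and known as a metastasis suppressor, read 564, 523 and 680.2 in WT-GR vehicle and 56.6, 45.6 and 19.6 in S134A-GR vehicle.

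Among 13 tested endothelial and fibroblast markers, 5 were called lower and 1 higher in S134A-GR vehicle, with a median log2 difference of -0.16 against 0.01 over all genes. The summed level of the 16 markers in the files was 23720 to 25070 in WT-GR vehicle and 19940 to 20730 in S134A-GR vehicle. CDH5, VE-cadherin, was just outside the rule, with means of 186.6 and 19.0, while PECAM1 had means of 1358 and 1141. What part this pattern has in the values of ADGRF5 and TMEM204 was not tested.

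Of the 8 members that are enzymes, 4 had no read in any S134A-GR library: PNPLA4, ASRGL1, CYP2J2 and SDR16C5. PNPLA4, a lipase that acts on retinyl esters, read 277, 229 and 208 in WT-GR vehicle. Its mean was 251-fold above the S134A-GR limit for independent reads. ASRGL1, an asparaginase, read 212, 189 and 176, CYP2J2, an epoxygenase of arachidonic acid, 106, 111 and 155, and SDR16C5, a retinol dehydrogenase, 71.7, 109 and 121. ALDH2, the mitochondrial aldehyde dehydrogenase that clears acetaldehyde, was the most abundant of the 8 by read count, with 1084, 1116 and 1170 in WT-GR vehicle and 18.8, 28.4 and 32.1 in S134A-GR vehicle (2.35% left). GLB1L2, a galactosidase-like protein, and QPCT, a glutaminyl cyclase, held 0 and 2 reads in S134A-GR vehicle, and MARC1, a mitochondrial reductase, held 19.

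The remaining members are transporters, regulators and genes of little known function. KCNK1, a potassium channel, and SLC12A7, a potassium-chloride cotransporter, held 6 and 4 reads in S134A-GR vehicle and none in S134A-GR Dex. GRAMD1B, which moves cholesterol out of the plasma membrane, read 368, 379 and 322 in WT-GR vehicle and held 2 reads over the 3 S134A-GR vehicle libraries. LDOC1, an X-linked gene derived from a retrotransposon, read 138, 155 and 175, and L3MBTL4, of the family that binds methylated histones, 108, 102 and 132; both were at 0 in all 6 S134A-GR libraries. LDB2, which joins LIM proteins in transcription complexes, held 2 reads in vehicle and 1 in Dex. LOC643201 read 525, 512 and 544 against 27.3, 28.4 and 22.3, and TMEM25 and C10orf35 kept 3.87% and 3.59% in vehicle.

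In all, 9 members had no read in any S134A-GR library (PNPLA4, ASRGL1, SFTA3, LDOC1, CYP2J2, TFF2, COBL, L3MBTL4 and SDR16C5), 13 had none in vehicle and 11 none in Dex. All 9 had WT-GR vehicle means under 240. Their folds over the limit of 3 reads ran from 106-fold (SDR16C5) to 251-fold (PNPLA4) in vehicle, which are lower bounds only if reads are independent. At these counts, a level under that limit was not detectable at this depth.

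Whether the 50 genes respond to Dex where they are expressed was tested in WT-GR cells, with limma on log2(value + 1) over all genes. The rule used the level in each treatment and not their difference, although members just above 100 were selected on their vehicle values. In the fit of all 12 libraries, 3 of 50 were called at an adjusted p of 0.05 (6.00%), against 27.9% of all 15957 genes. That fit shares 1 spread among the groups, and for these genes the near-empty S134A-GR libraries add to it: the median SD over the members, on the log2 scale, was 0.137 in WT-GR vehicle libraries and 0.243 with Dex, but 0.4 and 0.427 in S134A-GR vehicle and Dex, against 0.094, 0.148, 0.0646 and 0.0906 for all genes. In a fit of the 6 WT-GR libraries alone, 7 of 50 were called (14.0%), against 15.6% of all genes. Values of the Dex and vehicle groups did not overlap for 17 of 50 (34.0%), against 35.1% of all genes. The share of members called was thus under the background in the fit of 12 and near it in the fit of 6. The median Dex change of the 50 was -0.03 on the log2 scale (23 above 0 and 27 below), against -0.02 for all genes.

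TMEM204, a claudin-like membrane protein of vessels, had the largest rise. It read 187, 150.1 and 219 in WT-GR cells without Dex and 584, 455 and 490.2 with it, so the groups did not overlap, and its log2 change was 1.46 (SE 0.36, limma adjusted p = 0.00889). In S134A-GR cells it read 8.48, 2.03 and 5.35 in vehicle and 14.8, 26.2 and 17.0 in Dex, a rise of 1.80 (SE 0.36, limma adjusted p = 0.00297) on 17 and 62 reads. It thus rose with Dex in both lines, in all Dex libraries above all vehicle libraries, from a far lower level in S134A-GR cells. TMEM204 lies within the span of IFT140 on the opposite strand; the 2 genes share no exon base in GENCODE v29, and IFT140 was at 144% of its WT-GR mean in S134A-GR vehicle.

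RNF144A, an E3 ubiquitin ligase, read 384, 340.3 and 402 in WT-GR cells without Dex and 871, 798 and 781 with it. The 3 Dex values all lay above the vehicle values, with a log2 change of 1.12 (SE 0.28, limma adjusted p = 0.00967). In S134A-GR cells it read 20.7, 26.4 and 18.7 in vehicle and 12.7, 35.9 and 24.5 in Dex. These overlap, with a log2 change of 0.04 (SE 0.28, limma adjusted p = 0.959), and the difference between the 2 responses did not pass its own test (-1.08, SE 0.40, limma adjusted p = 0.217).

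ADGRF5 was the one member called lower. Its WT-GR values given above fell from a mean of 5553 to 2767, with no overlap and a log2 change of -1.01 (SE 0.12, limma adjusted p = 4.09e-05). In S134A-GR cells its mean fell from 442.6 to 133.1, likewise with no overlap, by 1.75 on the log2 scale (SE 0.12, limma adjusted p = 1.58e-07). The difference between the responses was -0.74 (SE 0.17, limma adjusted p = 0.0873) and was past the threshold only in DESeq2, so it is not called here.

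The 4 further genes past the threshold in the 6-library fit were NYNRIN, DPYSL3, ALPK2 and GRAMD1B. NYNRIN, a gene of unknown function with a retroviral integrase-like part, read 593, 577 and 462 in WT-GR vehicle and 1029, 929 and 898 in Dex, a log2 change of 0.81 (SE 0.12, limma adjusted p = 0.00186 in that fit and 0.136 in the fit of 12). DPYSL3, a cytoskeletal protein of growing axons, read 73.3, 110 and 121 against 188, 177 and 160 in Dex, with adjusted p-values of 0.0396 and 0.321 by limma. ALPK2, an atypical kinase, read 117, 116 and 127 against 75.1, 38.9 and 46.8 in Dex (limma adjusted p = 0.0181 and 0.174), and GRAMD1B read 368, 379 and 322 against 217, 236 and 274 (limma adjusted p = 0.0315 and 0.499). In each, the 3 Dex values lay on one side of the 3 vehicle values.

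**Figure D4:**
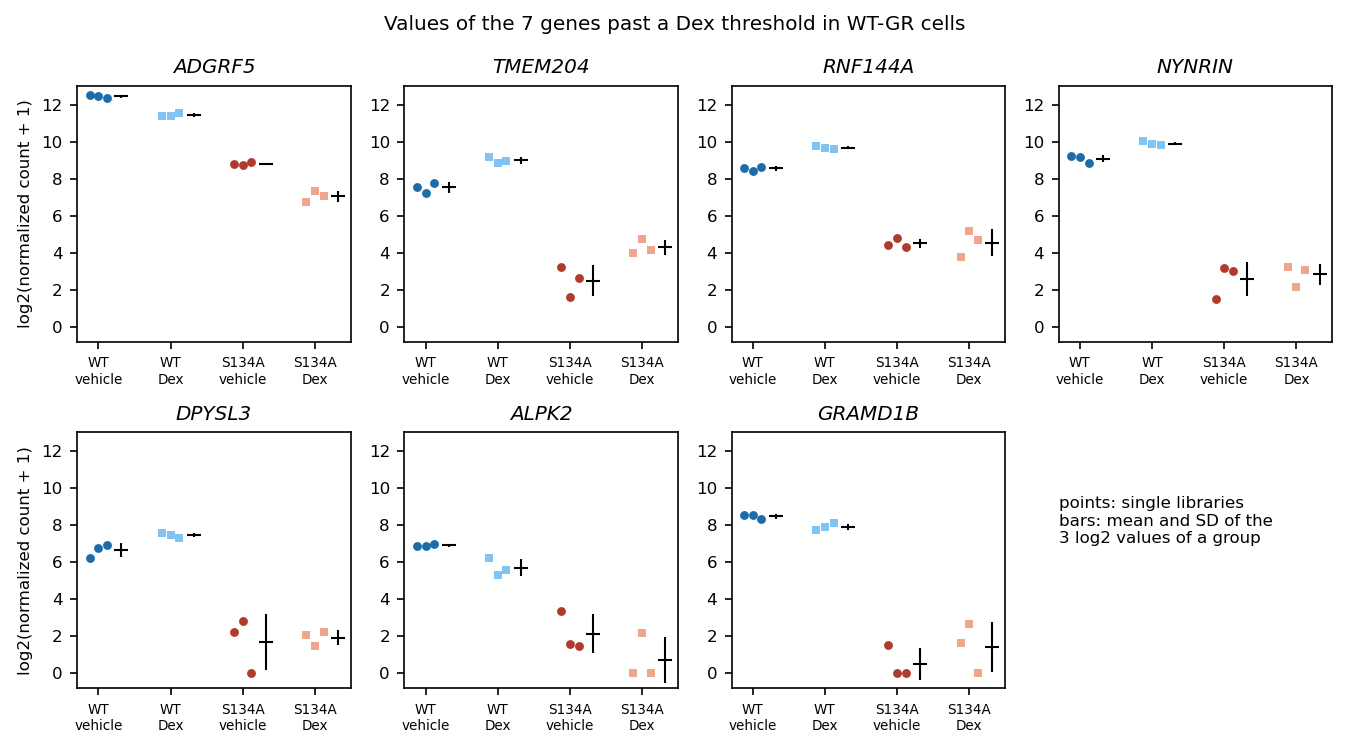
Values of the 7 genes past the threshold for Dex in the fit of the 6 WT-GR libraries, as log2(normalized count + 1) by group; points are libraries, and bars give the mean and SD of 3 log2 values. TMEM204, RNF144A, NYNRIN and DPYSL3 are higher and ADGRF5, ALPK2 and GRAMD1B lower in all 3 WT-GR Dex libraries than in all 3 WT-GR vehicle libraries.

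**Figure D5:**
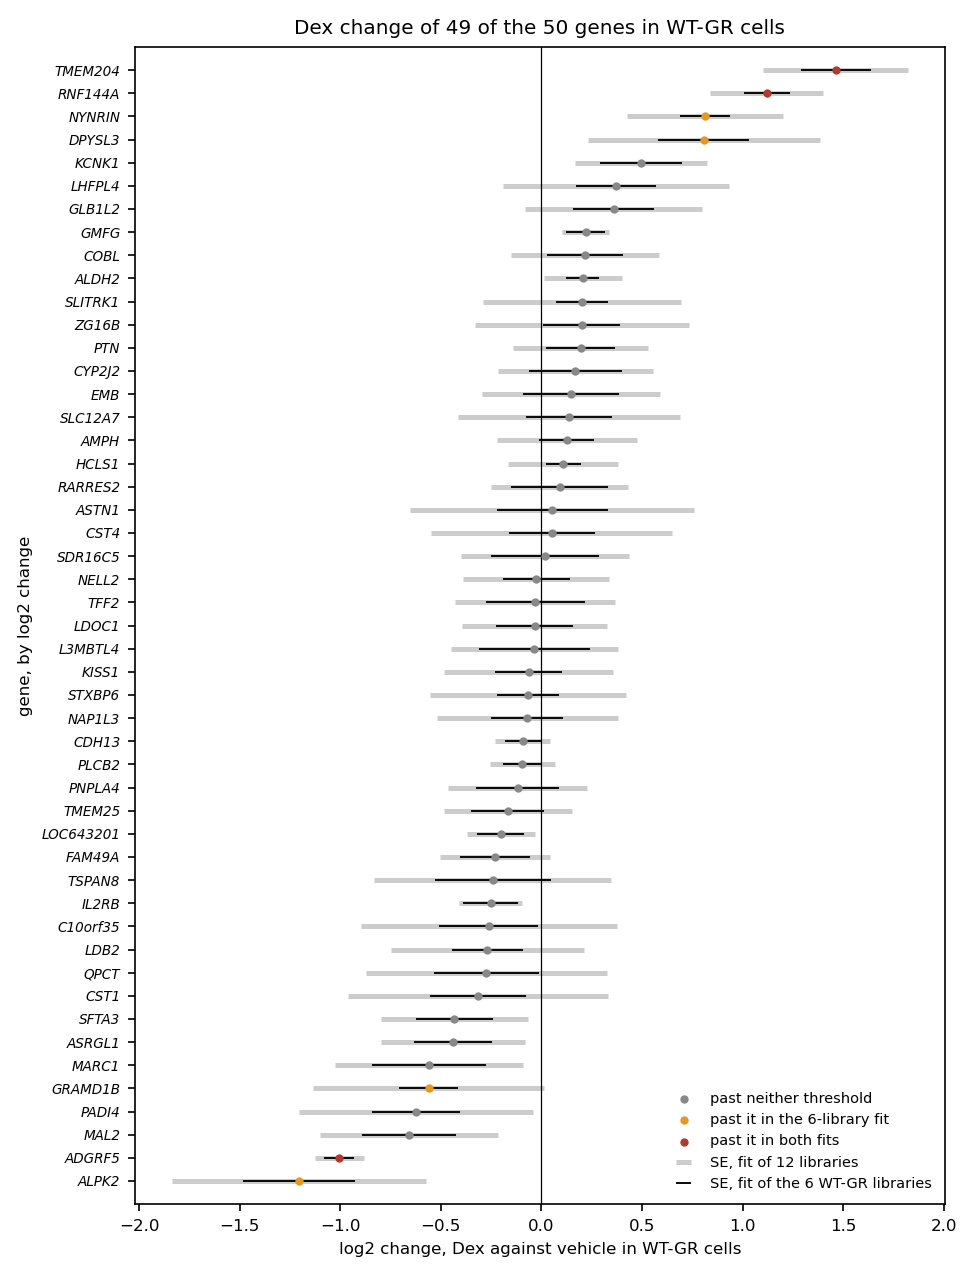
Log2 change with Dex in WT-GR cells (horizontal) of 49 of the 50 genes, ordered by size, with the SE of the 12-library fit (grey) and of the 6-library fit (black); red genes passed the threshold in both fits and orange genes in the 6-library fit only. Changes run from -1.21 (ALPK2) to 1.46 (TMEM204).

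The most abundant members other than ADGRF5 did not pass the test for Dex. HCLS1 changed by 0.11 on the log2 scale (SE 0.09 in the 6-library fit), PLCB2 by -0.09 (SE 0.10) and CDH13 by -0.09 (SE 0.09). GMFG and ALDH2 were higher in all 3 Dex libraries, by 0.22 (SE 0.10) and 0.21 (SE 0.08), without passing. Members at lower levels had wider errors, such as TSPAN8 (-0.24, SE 0.29) and MARC1 (-0.56, SE 0.28). At errors that wide, changes of that size were not detectable with 3 libraries.

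In S134A-GR cells the fit of 12 libraries called 5 of 50 for Dex (10%), against 15.7% of all genes, and the fit of those 6 libraries called 3 (6.00%), against 21.6%. Nothing is read from these shares: the rule chose the genes to be near 0 in these cells, and the 9 without a read there could not be called. ADGRF5 and TMEM204 are described above. KCNK1 held 2 reads in each vehicle library and none in Dex, MAL2, an epithelial transport protein, held 3, 6 and 6 against 2, 2 and 0, and NAP1L3, a nucleosome assembly protein, 8, 6 and 6 against 0, 4 and 2. These 3 calls rest on a handful of reads, and MAL2 and NAP1L3 are not called in the 6-library fit. The test of the difference between the WT-GR and S134A-GR responses called none of the 50 by limma or by edgeR with TMM. Of all 15957 genes, limma called 66 (0.414%) and edgeR 61. DESeq2 called ADGRF5 alone of the 50, and 506 of all genes.

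Receptor signalling and cell identity in the 2 lines were read from lists that hold none of the 50 genes. Of 29 known glucocorticoid-induced genes, 27 rose with Dex in WT-GR cells and 26 in S134A-GR cells and none was called lower, with median log2 changes of 1.75 and 1.29 against -0.02 over all genes in both. TSC22D3, an inducible leucine zipper protein, had means of 3010 and 62230 in WT-GR vehicle and Dex, and 2060 and 40550 in S134A-GR cells. Between genotypes, 16 of the 29 were called lower and 1 higher in S134A-GR Dex, and 9 and 6 in S134A-GR vehicle. The median log2 differences were -0.26 in Dex and -0.05 in vehicle, against 0.01 over all genes in both. Of 20 markers of MDA-MB-231 and mesenchymal cells, all were tested, and 10 were called lower and 4 higher in S134A-GR vehicle, with a median log2 difference of -0.12. VIM, the mesenchymal filament protein vimentin, had means of 422900 in WT-GR and 428800 in S134A-GR vehicle, FN1, fibronectin, had 42650 and 9582, and ESR1, the oestrogen receptor, had group means of 0 to 3.24. Both lines thus held the labelled line's leading markers, and differed in some of them.

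Enzymes of DNA methylation and of the Polycomb complexes, which act on chromatin, form another list. Of 28 tested, 10 were called lower and 9 higher in S134A-GR vehicle, with a median log2 difference of -0.03 against 0.01 over all genes. DNMT1, the maintenance methyltransferase, had means of 32540 and 28750 (log2 difference -0.18, limma adjusted p = 0.0223), and EED, a Polycomb subunit, 3939 and 2263 (-0.80, limma adjusted p = 3.28e-07). EZH2, the Polycomb methyltransferase, had 7269 and 8421 (0.21, limma adjusted p = 0.00186). The part of these levels in the values of the 50 genes was not tested. Among the other lists, 10 of 20 tested luminal breast markers were called lower and 3 higher in S134A-GR vehicle. AGR2 is among these 10, and it met the rule's numeric limits and so had to be lower. The counts were 1 and 3 of 8 cancer-testis genes, 1 and 4 of 10 neuronal genes, and 9 and 1 of 20 housekeeping genes.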

How the data were processed

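The 50 genes, the gene lists and the tests were chosen with earlier results of these data known. Each of 12 files holds a normalized signal value per gene, deposited by the authors; the values are read counts divided by a size factor of the library, since 100% of them are whole multiples of the smallest value within 0.01 reads. Tools named, without roles, per the submitters' processing notes are DESeq2 1.22.2, FastQC 0.11.7, Subread and featureCounts, with build hg38. For aligner, annotation and strand setting: not given in the sources used here. Dex files list 26485 names but 19907 values; by line order their log2 values correlated with the vehicle mean at 0.9822 to 0.9860, and by name at -0.0059 to -0.0040 (across genes).

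Differences were tested two-sided in R 4.3.3 by limma 3.58.1, letting the variance follow the mean, on log2(value + 1). Benjamini-Hochberg adjustment ran over the 15957 genes that reached 10 in 3 or more libraries, with a threshold of 0.05; a change on this scale understates that of low genes. All 12 libraries entered 1 fit. Alternatives on recovered reads used DESeq2 1.42.0 and edgeR 4.0.16, beside other pseudocounts, no filter, only the groups compared, a replicate block and leaving out libraries. The code was tested on simulated data in which no gene was near-empty in S134A-GR cells alone. Folds against a group at 0 use 3 reads over its 3 libraries, which covers the counting error of independent reads only. The rule for genes named with values took the 20 highest in WT-GR vehicle, up to 10 rises and 10 falls called for Dex, the 5 nearest each limit, families or lists with 3 members, adjacent members and those at 0 in all 6 S134A-GR libraries; other genes were named with their values in view. Role groups were assigned by hand. Of the 50 genes, 1 is included in all counts but is not reported here by name. Levels per kilobase use GENCODE v29 exon lengths; positions and promoters are RefSeq GRCh38.p14, matched for 50 and 31 genes.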

Additional observations from a re-analysis of the deposited data

How the results depend on the processing

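The number of members called for Dex in WT-GR cells was 3, beside 4455 of all 15957 genes. It became 5 with a pseudocount of 5 (4514 of all genes), 4 with edgeR and TMM (4440) and 7 with DESeq2 (5022). With only the groups compared it was 7 (2490). The share of members was thus under that of all genes with DESeq2 too. Leaving out any 1 WT-GR library gave 3, and S134A-GR libraries were not left out for this count. ADGRF5, RNF144A and TMEM204 were past the threshold with the same sign in each of 15 settings with repaired names (highest adjusted p 0.00134, 0.0453 and 0.0451). In S134A-GR cells the 5 calls (2513 of all genes) became 3 with a pseudocount of 5 (2513), 3 with DESeq2 (3021) and 3 with only the groups compared (3439). With 1 S134A-GR library left out they became 4 to 7, beside 1799 to 2046 of all genes. Over all genes, the 4455 calls for Dex in WT-GR cells became 2490 with only the groups compared and 2977 to 6088 with 1 WT-GR library left out.

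With names as deposited, members called became 35 of 36 and 30 of 36, genes called for Dex 13578 and 13549, genes called for genotype 4264 in vehicle and 3995 in Dex against 8061 and 7931, and the number of members 4. Signs turned, past the threshold, for ALDH2 (-0.616), C10orf35 (6.383), COBL (-4.836), GMFG (-8.146), GRAMD1B (5.893), PADI4 (5.625), PNPLA4 (4.693), RARRES2 (-3.393), RNF144A (-2.664), SDR16C5 (-5.138) and TMEM204 (-2.737), and short of it for KCNK1 (-1.319); such values compare different genes.

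The rule gave 80 members at a ratio limit of 20%, 90 at a level of 50 and 22 at 200, and 48 to 54 when 1 library was left out; without WT-GR Dex libraries 2 and 3, added after seeing the data, it gave 51. Without those libraries the Dex fit leaves 1 library in its group, assumed to vary like the others, and called the same number of members, 3.

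Whether replicate numbers pair the libraries is not in the labels. Correlations between same-numbered libraries of different groups ran from -0.085 to 0.055, and between different-numbered ones from -0.076 to 0.092. With the replicate block, 3 members were called for Dex in WT-GR cells and 4 in S134A-GR cells, beside 3786 and 2138 of all genes. Depth limits members with few reads in S134A-GR cells, where a change of a few reads decides a call.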
